A study of Mus musculus with 14 samples.

Results

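The Eph receptors and ephrins described here are 10 genes chosen by name: the receptors Ephb2, Ephb3, Ephb4, Epha3, Epha4 and Epha7, and the ligands Efnb1, Efnb2, Efna1 and Efna5. All 10 are among the 15894 genes listed for the dissected epicardial and subepicardial layer of E16.5 mouse hearts, and all 10 passed the filter on low values in each of the 5 comparisons. They are 6 receptors and 4 ligands out of a family of 22 genes, and 7 of the 12 other family genes are listed as well.

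Ephs are receptor tyrosine kinases and ephrins are their membrane-bound ligands, so signalling needs contact between neighbouring cells. The receptor sends a forward signal into its own cell and the ephrin can send a reverse signal into the other, and both act largely on the cytoskeleton and on adhesion, so that cells are sorted, held apart or guided. EphA receptors mostly bind ephrin-A ligands, which are held by a lipid anchor, and EphB receptors mostly bind the transmembrane ephrin-Bs, with exceptions such as the binding of ephrin-Bs by EphA4. In vessels, ephrin-B2 is known as a marker of arterial endothelium and EphB4 of venous endothelium, and ephrin-B2 is also required for the growth and valves of lymphatic vessels.

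The 4 groups of untreated hearts used here were all from female or male embryos labelled Tbx18Cre, a line in which Cre is driven from Tbx18, a gene of the epicardium; the study calls these hearts wild type. There were 3 female ventral libraries and 3 female dorsal libraries from pools 1 to 3, 4 male ventral libraries from pools 4 to 7 and 3 male dorsal libraries from pools 4 to 6. Each library held 2 hearts. A further male library, of pool 7, is given as dorsal in its title and source and as ventral in its tissue field, so it entered no test of region. The pool numbers keep females and males apart, so sex cannot be told apart from any other difference between pools 1 to 3 and the rest.

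Reads on the listed genes ran from 13.9 to 25.2 M per library (median 20.4 M). Levels are given as normalized CPM, that is, reads scaled to counts per M of an effective library size, and 3 reads corresponded to 0.135 to 0.253 normalized CPM. The epicardial markers Wt1, Tbx18 and Upk3b were present in each library, with Wt1 at 26.4 to 215.6 normalized CPM, and so was muscle RNA, with 10 ventricular markers summing to between 17180 and 45731 across the 13 libraries of settled region. Female dorsal replicate 1 stood apart, since its 5 atrial markers summed to 12462 normalized CPM against 474.9 to 1993 in the other 13 libraries. Male ventral replicate 7 also stood apart, with 6 blood endothelial markers summing to 55.8 and 5 erythroid markers to 37773. No 2 libraries of a group agreed within sampling noise.

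The promoters of the 3 genes called in female hearts are shown first, as 250 bases before and 50 after the start in RefSeq (GRCm38.p6, read on the strand of the gene), with each CG in capitals.
Efnb1: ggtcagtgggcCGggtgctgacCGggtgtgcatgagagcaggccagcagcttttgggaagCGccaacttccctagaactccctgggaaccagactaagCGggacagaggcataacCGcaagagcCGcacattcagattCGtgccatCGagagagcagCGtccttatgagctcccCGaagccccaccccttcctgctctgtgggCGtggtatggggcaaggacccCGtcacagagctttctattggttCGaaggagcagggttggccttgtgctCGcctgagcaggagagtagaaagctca
Ephb2: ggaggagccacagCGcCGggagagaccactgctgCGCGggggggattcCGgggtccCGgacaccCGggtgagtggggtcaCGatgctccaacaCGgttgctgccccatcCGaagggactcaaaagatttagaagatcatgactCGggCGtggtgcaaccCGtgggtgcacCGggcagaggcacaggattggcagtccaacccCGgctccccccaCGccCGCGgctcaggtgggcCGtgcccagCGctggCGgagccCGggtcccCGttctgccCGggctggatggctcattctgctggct
Efna5: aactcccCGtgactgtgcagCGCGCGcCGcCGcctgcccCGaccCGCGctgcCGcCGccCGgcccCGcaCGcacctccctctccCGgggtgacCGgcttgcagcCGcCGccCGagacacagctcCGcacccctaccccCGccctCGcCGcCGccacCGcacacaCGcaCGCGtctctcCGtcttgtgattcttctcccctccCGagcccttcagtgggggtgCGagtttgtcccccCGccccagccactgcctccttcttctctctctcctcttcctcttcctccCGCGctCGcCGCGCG

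The Efnb1 promoter lies at chrX:99135811-99136110 on the plus strand, that of Ephb2 at chr4:136835963-136836262 on the minus strand and that of Efna5 at chr17:62881268-62881567 on the minus strand. They held 14, 24 and 38 CG pairs. The 12 listed promoters of the 10 genes held between 14 and 38, while 36.5% of all 32544 promoters of the same length held at least 14 and their median was 7. The letters TGGGAA, the core bound by RBPJ, occurred on either strand in 4 of these 12 promoters (Efnb1, Epha4 and 2 overlapping ones of Epha7), with 2 copies in that of Efnb1, and in 25.4% of all promoters. The letters TCAAAG, bound by TCF/LEF factors, were in none of the 12 and in 16.0% of all, and the T-box letters GGTGTGA were in 1 of the 12, upstream of Efna1, and in 3.95% of all. None of these 3 motifs holds a CG, and the T-box letters alone can share a base with one.

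Per kilobase of exon, ephrin-As stood highest among the 10 genes. Efna5 had a mean level of 36.1 ± 9.95 normalized CPM per kb (SD over 13 libraries) and Efna1 34.7 ± 10.2. Efna5 was above Efna1 in 7 of 13 libraries, so their order is not settled. Efnb1, at 8.52 ± 4.49, and Ephb4, at 8.34 ± 2.82 normalized CPM per kb, came next and also did not separate, Efnb1 being higher in 5 of 13 libraries.

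Below them, the level per kb was 3.29 for Epha7, 2.39 for Efnb2, 2.38 for Epha4, 1.41 for Epha3, 0.740 for Ephb3 and 0.405 for Ephb2. Each of these was above the next in 9 to 11 of 13 libraries, so that neighbours in this order overlapped in their spread. Ephb2 was the scarcest of the 10 per length, with 14 to 198 reads in a library. The length used is that of all annotated exons of a gene joined, 12608 bases for Ephb2 and 6641 for Ephb3. Before division by length, Ephb2 had a mean of 5.10 normalized CPM over 13 libraries and Ephb3 one of 4.92. The last place of Ephb2 thus depends on that length.

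**Figure D1:**
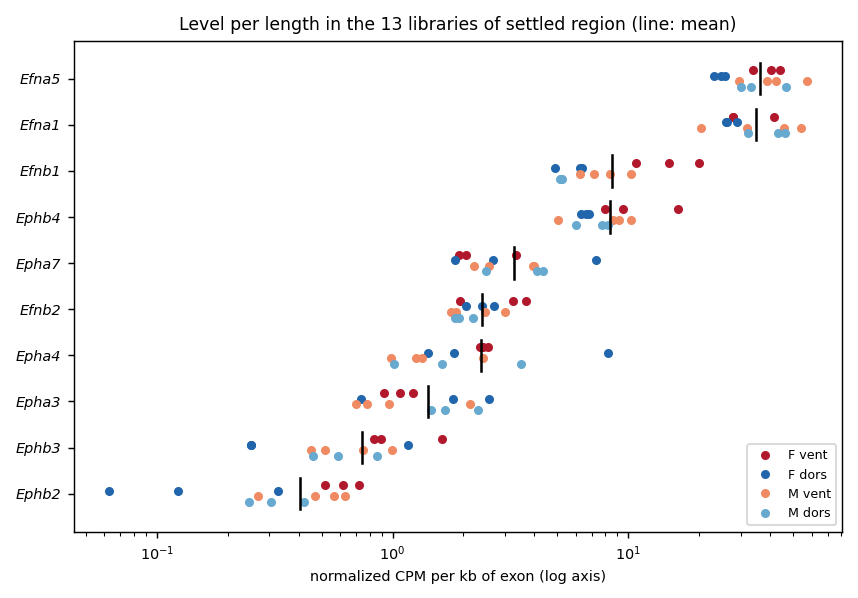
Level of the 10 genes in normalized CPM per kb of exon (log axis), 1 point for each of the 13 libraries of settled region, coloured by sex (F, M) and region, with a line at the mean. Efna5 and Efna1 stand apart at the top, at means of 36.1 and 34.7, and Ephb2 lies lowest at 0.405.

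In female hearts, 3 of the 10 genes were called higher ventrally in limma (adjusted p under 0.05, Benjamini-Hochberg over the genes tested): Ephb2, Efnb1 and Efna5. None was called higher dorsally. Among all 14411 genes tested, 27.8% were called in either direction and 14.5% higher ventrally, so the number called was close to the background. The 3 called genes are too few to read their shared direction as a trait of the 10. The 10 genes had a median log2 change of 0.46, beside 0.01 over all genes. Of the 10, 4 had an unadjusted p under 0.05 in limma, beside 5840 of the 14411 genes tested, so this count was also close to the background. In this bulk material, fewer cells of a type and less RNA per cell cannot be told apart.

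Ephb2, an EphB receptor known for repulsion and boundary formation, is encoded on the minus strand of chromosome 4 of GRCm38 (136647539 to 136835988). It measured 6.50, 7.77 and 9.06 normalized CPM in the female ventral libraries and 1.55, 0.789 and 4.12 in the female dorsal ones. Each ventral library stood above each dorsal one, and the dorsal libraries varied widely among themselves. The mean fell from 7.78 ± 1.28 ventrally (SD, n = 3) to 2.15 ± 1.74 dorsally, a log2 change of 1.61 (standard error 0.403, limma adjusted p = 0.0169). On the log2(value + 1) scale used here the change of so low a gene is understated. The call was lost when female ventral replicate 2 (limma adjusted p = 0.0569), female ventral replicate 3 (0.0533) or female dorsal replicate 2 (0.0595) was left out. After correction of each library for GC content and length the log2 change was 0.85, with an adjusted p of 0.149.

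Efnb1, the transmembrane ligand ephrin-B1, which signals in both directions, lies on the plus strand of chromosome X (99136130 to 99148991). Its levels were 37.3, 68.9 and 51.3 normalized CPM in the female ventral libraries against 21.6, 21.9 and 16.9 in the female dorsal ones. All 3 ventral libraries were above all 3 dorsal libraries, and the dorsal ones lay close together. The mean of 52.5 ± 15.8 ventrally was 2.61 times that of 20.1 ± 2.80 dorsally, a log2 change of 1.31 (standard error 0.232, limma adjusted p = 0.00385). This call was kept under each of the 14 alternatives tried in female hearts, those without 1 library included.

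Efna5, the lipid-anchored ligand ephrin-A5, known for the guidance of axons, lies on the minus strand of chromosome 17 (62604184 to 62881317). It measured 137, 162 and 178 normalized CPM ventrally and 100, 104 and 93.4 dorsally in female hearts. The groups did not overlap, and the dorsal libraries again differed little. The mean was 158.9 ± 20.7 ventrally and 99.0 ± 5.14 dorsally, a log2 change of 0.67 (standard error 0.140, limma adjusted p = 0.00761), and the call was kept under each of the 14 alternatives.

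Ephb4, the receptor of venous endothelium, lies on the plus strand of chromosome 5 (137350109 to 137378669) and overlaps Zan on the other strand. Its levels were 44.3, 75.5 and 36.8 normalized CPM in the female ventral libraries and 30.8, 31.6 and 29.2 in the female dorsal ones. The groups did not overlap, but female ventral replicate 2 was far above the other ventral libraries. The log2 change of 0.69 (standard error 0.242) missed the threshold in limma with an adjusted p of 0.0589. With the pool number as a block, that is, comparing the ventral and the dorsal library of 1 pool, the adjusted p was 0.0296 and Ephb4 was called, so that 4 of the 10 genes were called against 29.6% of all genes. Leaving out female ventral replicate 2 lowered the log2 change to 0.39 (limma adjusted p = 0.174), and leaving out female ventral replicate 3 raised it to 0.90 (0.0308, called).

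Ephb2, Ephb4, Efnb1 and Efna5 were the genes whose female groups did not overlap, 4 of 10, while 44.8% of all genes tested had female groups that did not overlap. Efnb2, the arterial ephrin-B2, measured between 13.2 and 25.3 normalized CPM in the female ventral and between 14.1 and 18.4 in the female dorsal libraries, a log2 change of 0.25 (95% interval -0.33 to 0.84). Efna1, a ligand known from endothelium stimulated by TNF, lay between 50.7 and 76.2 ventrally and between 47.4 and 53.0 dorsally, a log2 change of 0.23 (-0.18 to 0.64). For both ligands the groups overlapped, and intervals of this width leave room for a change in either direction.

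**Figure D2:**
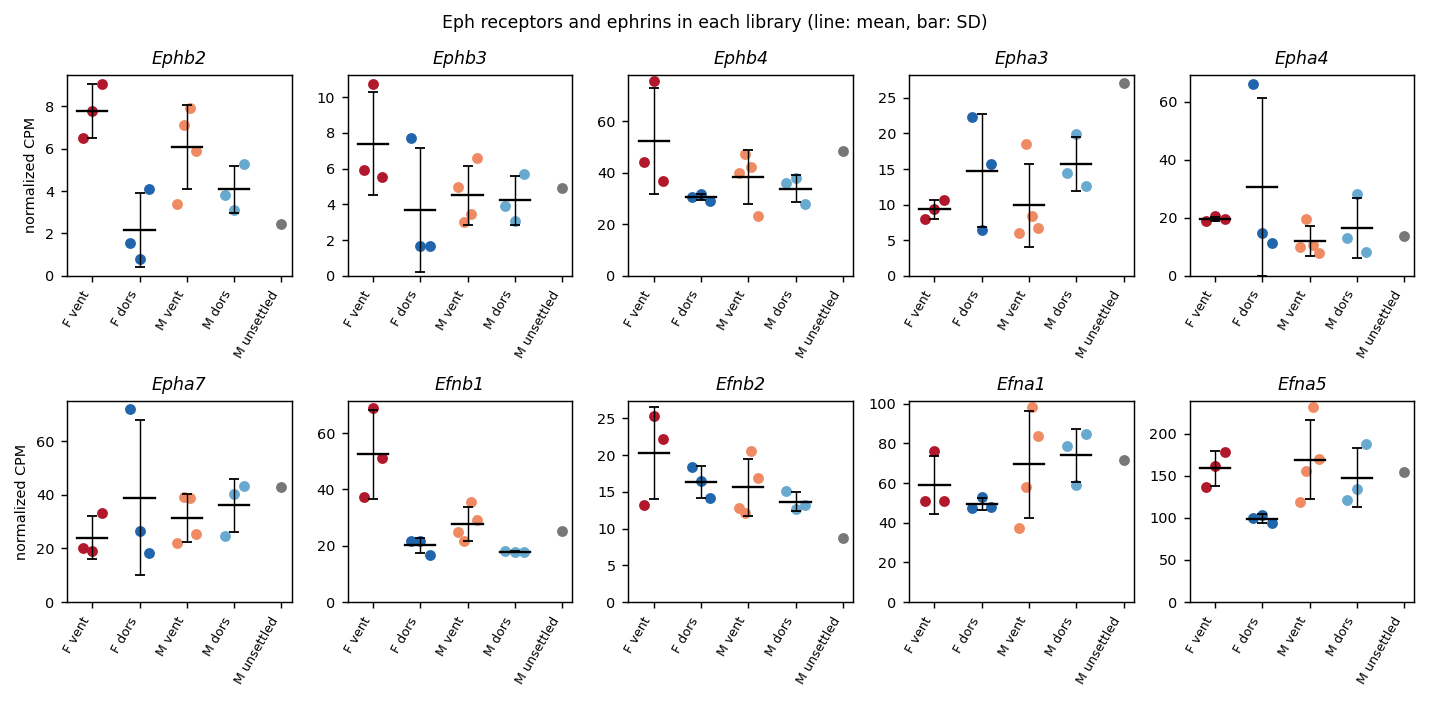
Normalized CPM of the 10 genes in each of the 14 libraries, by sex and region, with 1 point a library, the mean as a line and the SD as a bar (cut off at 0). Ephb2, Ephb4, Efnb1 and Efna5 have female ventral points above all female dorsal points, and Epha4 has 1 female dorsal point at 66.1, far above the rest.

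The EphA receptors gave the opposite sign. Epha3, Epha4 and Epha7 had log2 changes of -0.47, -0.19 and -0.47 in female hearts, and none passed the test. For Epha4 and Epha7, the female dorsal values were spread widely by 1 library. Epha4, a receptor that binds ligands of both classes, measured 19.02, 20.5 and 19.6 normalized CPM ventrally and 66.1, 14.7 and 11.4 dorsally. The ventral libraries were nearly equal, whereas the dorsal ones held both the highest and the lowest values. Epha7, a receptor known for guiding axons, measured 20.2, 18.9 and 33.1 ventrally and 71.9, 26.4 and 18.2 dorsally, with the same dorsal library on top.

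That library, female dorsal replicate 1, was the one with the atrial markers described above, with 7228 normalized CPM of Myl7 and 1038 of Sln against 369 and 4.06 in female dorsal replicate 2. It also held the highest Epha4 and Epha7 values of all 14 libraries. Ephb3, an EphB receptor that shares ligands with Ephb2, measured 5.92, 10.7 and 5.54 normalized CPM ventrally and 7.69, 1.66 and 1.67 dorsally, so that this library again was the dorsal one standing high. The part of atrial RNA in these values was not tested.

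Without female dorsal replicate 1, the log2 change of Epha4 turned to 0.57 (limma adjusted p = 0.119) and that of Epha7 to 0.08 (0.864). Ephb3, with a log2 change of 1.04 and an adjusted p of 0.137 over all 6 libraries, was then called higher ventrally at 1.60 (adjusted p = 0.0192). In that setting 4 of the 10 genes were called, Ephb2, Ephb3, Efnb1 and Efna5, beside 22.9% of all genes. Epha3, a receptor known from the endocardial cushions and atrial septum, had female dorsal values of 22.3, 6.4 and 15.7 normalized CPM, and its log2 change went from -0.47 to -0.11 without female dorsal replicate 1 and to -0.94 without female dorsal replicate 2 (limma adjusted p = 0.0573).

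**Figure D3:**
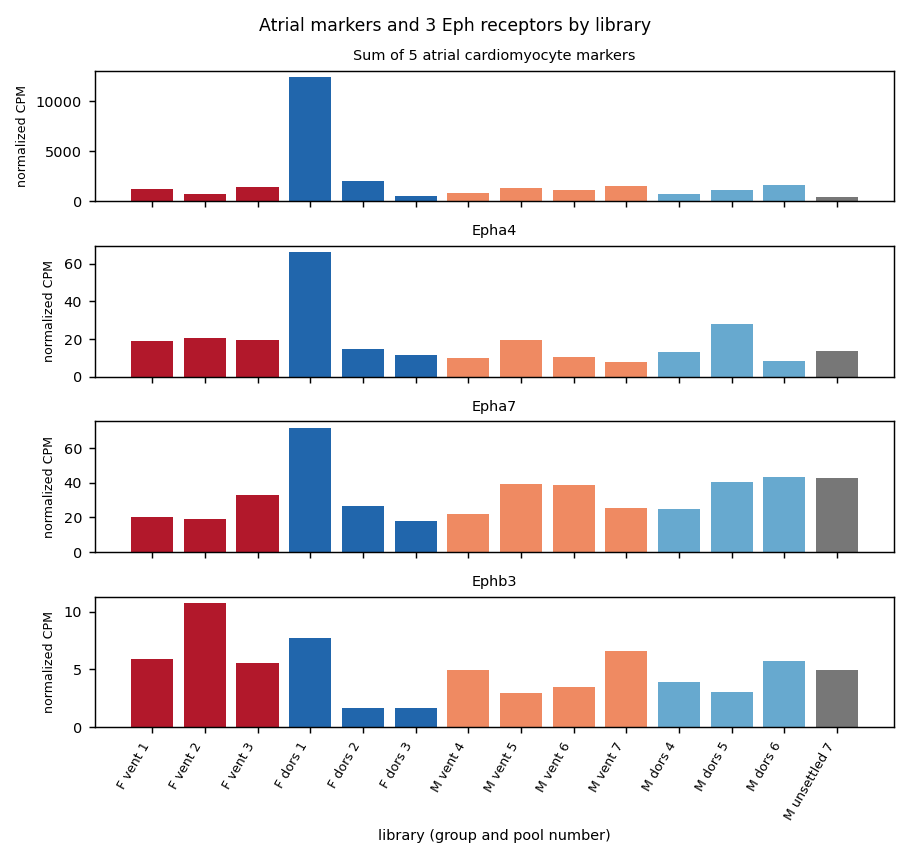
Summed normalized CPM of 5 atrial cardiomyocyte markers and the normalized CPM of Epha4, Epha7 and Ephb3, 1 bar for each of the 14 libraries. Female dorsal replicate 1 holds 12462 for the atrial sum, 66.1 for Epha4 and 71.9 for Epha7, each the highest of the 14.

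In male hearts none of the 10 genes was called, and none of the 14917 genes tested was called in limma (0.0%), although 2083 had an unadjusted p under 0.05. Among the 10 genes, 1 had an unadjusted p under 0.05, Efnb1. Efnb1 measured 24.7, 21.6, 35.4 and 29.0 normalized CPM in the male ventral libraries and 18.1, 17.8 and 17.9 in the male dorsal ones. The dorsal values were almost equal, and all 4 ventral libraries stood above them. The log2 change was 0.58 (95% interval 0.11 to 1.04, limma adjusted p = 0.309). It was the one gene of 10 whose male groups did not overlap, beside 14% of all genes.

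Ephb2 measured 3.40, 7.11, 7.92 and 5.89 normalized CPM in the male ventral libraries and 3.83, 3.10 and 5.29 in the male dorsal ones. The groups overlapped, with male ventral replicate 4 below 2 of the 3 dorsal libraries. The log2 change of 0.46 had an interval from -0.31 to 1.22. Efna5 lay at 119, 156, 232 and 170 ventrally and at 121, 134 and 188 dorsally, and both libraries of pool 6 were the highest of their side.

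Ephb4 measured 40.1, 47.4, 42.4 and 23.4 normalized CPM in the male ventral libraries and 35.8, 38.0 and 27.8 in the male dorsal ones. The lowest ventral value was that of male ventral replicate 7, the library with little endothelial RNA, in which the 6 blood endothelial markers summed to 55.8 normalized CPM. Its part in the value was not tested. Among the rest, male log2 changes were 0.06 for Ephb3, 0.16 for Efnb2 and -0.17 for Efna1, and those of the EphA receptors ran from -0.72 for Epha3 to -0.20 for Epha7, none of them called.

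If a pool number pairs its libraries, which the labels do not say, the ventral library can be set against the dorsal library of that pool. Efnb1 and Ephb4 were higher ventrally in 6 of 6 pools. Ephb2 and Efna5 were higher ventrally in 5 of 6, with pool 4 as the exception for both. The female groups of these 4 genes did not overlap, as for 44.8% of all genes, so pools 1 to 3 could only count as ventral. For Efnb1 the male groups did not overlap either, so its count restates both results. The share of all genes with such counts was not taken. Epha3 and Epha7 were higher dorsally in 5 of 6 pools, and pool 2 was the exception for Epha3 and pool 3 for Epha7. Ephb3, Epha4 and Efnb2 were split at 3 of 6.

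With both sexes in 1 fit and sex as a covariate, 2 of the 10 genes were called higher ventrally, Efnb1 and Ephb2, and none higher dorsally. The background was 18.9% of 15772 genes in either direction and 9.8% higher ventrally. An unadjusted p under 0.05 was reached by 3 of the 10 genes, beside 5448 of all 15772. Efnb1 had a log2 change of 0.92 (standard error 0.182, limma adjusted p = 0.00759) and was called under each of the 23 alternatives. Ephb2 had one of 0.99 (standard error 0.300, adjusted p = 0.0325) and was called under 13 of 23. After correction for GC content and length its log2 change was 0.53 (adjusted p = 0.197), and leaving out any 1 of female ventral replicates 1, 2 and 3, female dorsal replicates 1 and 2 or male ventral replicate 6 also ended the call, with adjusted p from 0.0550 to 0.0784 and 1 of the 10 genes then called.

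Efna5 missed the threshold over both sexes, with a log2 change of 0.41 (95% interval 0.08 to 0.74, limma adjusted p = 0.0784). It was called without male ventral replicate 4 (adjusted p = 0.0234) or male dorsal replicate 6 (0.0237). Ephb4 changed by 0.40 (adjusted p = 0.163), and with the pool as a block by 0.52 with an adjusted p of 0.0470, which made 3 of the 10 genes called against 14.2% of all genes. Male ventral replicate 7 has no dorsal partner of settled region and adds nothing to that estimate, and leaving it out without a block gave the same change of 0.52 (adjusted p = 0.0452), so the gain is not particular to the block. Epha3 had a log2 change of -0.60 (95% interval -1.20 to 0.00112, adjusted p = 0.145) and was called higher dorsally without male ventral replicate 5, the one male ventral library with a high Epha3 value of 18.5 (adjusted p = 0.0496).

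**Figure D4:**
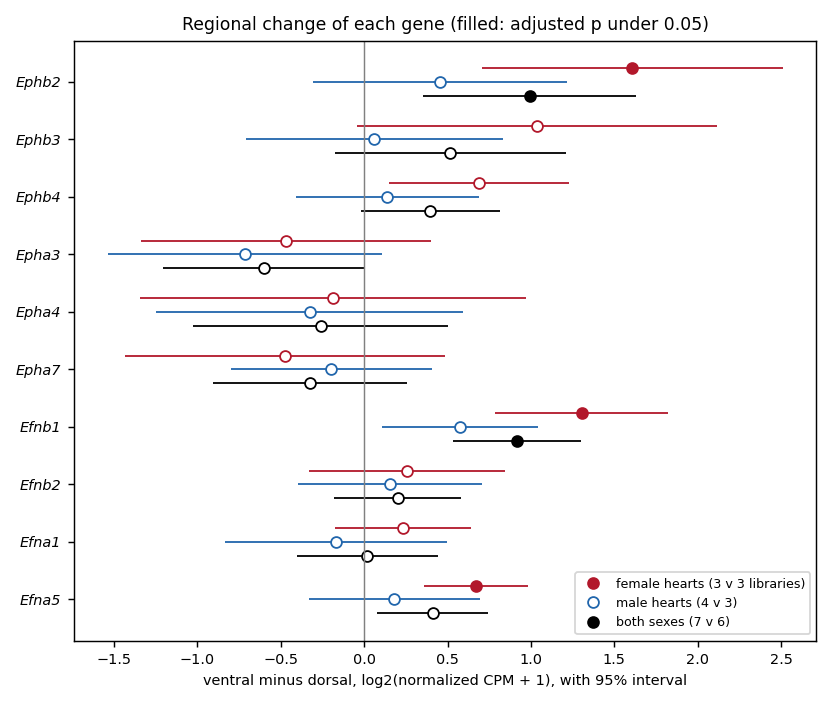
Ventral minus dorsal change of the 10 genes on the log2(normalized CPM + 1) scale with 95% intervals, in female hearts, male hearts and both sexes, filled where the adjusted p was under 0.05. Filled points are Ephb2, Efnb1 and Efna5 in females and Ephb2 and Efnb1 over both sexes, and the 3 EphA receptors lie left of 0 in each comparison.

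The regional change was not called different between the sexes for any of the 10 genes, beside 2.73% of all genes. The estimate was lower in males for 9 of the 10, with a median difference of -0.44 beside -0.02 over all genes. Ephb2 had a difference of -1.15 on the log2 scale (95% interval -2.30 to -0.00376, limma adjusted p = 0.323) and Efnb1 one of -0.73 (-1.40 to -0.06, adjusted p = 0.279). These were the 2 of the 10 with an unadjusted p under 0.05, beside 2428 of all 15772 genes. A call in females and none in males is therefore not shown to be a difference between them.

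Between the sexes over both regions, none of the 10 genes was called, beside 10.9% of all genes. Efnb1, on the X chromosome, came closest: it was lower in males by a log2 change of -0.54 (95% interval -0.92 to -0.15, limma adjusted p = 0.0705). Female libraries had a mean of 36.3 ± 20.4 normalized CPM (n = 6) and male libraries 23.5 ± 6.72 (n = 7), and the female ventral libraries were all above the male ones. Without female dorsal replicate 3 Efnb1 was called (adjusted p = 0.0485). Epha4 had a log2 change of -0.67 (-1.43 to 0.09) and Efna1 of 0.34 (-0.08 to 0.77).

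The material on the 2 sides differed beyond this family. In female hearts 10 of 10 epicardial markers were called higher ventrally, with sums of 1739 to 2841 normalized CPM in the ventral and 283 to 636 in the dorsal libraries. So were 5 of 8 fibroblast and mesenchyme markers, with sums of 11545 to 22103 against 2904 to 4547, and 5 of 6 macrophage markers. These lists moved in the direction of Ephb2, Efnb1 and Efna5, and their part in those changes was not tested. Ventricular muscle markers, of which 1 of 10 was called higher and 1 lower ventrally, summed to 21694 to 31639 in the ventral and 31153 to 45131 in the dorsal libraries. In male hearts no epicardial marker was called, as none of the 14917 genes tested was, and the sums overlapped, at 1996 to 6075 ventrally and 1616 to 4300 dorsally. All 10 still had male log2 changes above 0, with a median of 0.66 beside 0.03 over all genes. So did 8 of 8 fibroblast and mesenchyme markers and 6 of 6 macrophage markers.

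For the vascular pair, 6 general blood endothelial markers summed to 280.6 to 551.9 normalized CPM in the female ventral and 382.6 to 523.7 in the female dorsal libraries, and none of them was called. Arterial markers were called lower ventrally for 3 of 5 tested, with sums of 21.5 to 63.4 against 97.1 to 173.3, while Efnb2, the arterial ligand, had the values given above and was not called. Venous markers were called higher ventrally for 2 of 4, with overlapping sums of 186.5 to 333.8 against 196.9 to 260.6, and lymphatic markers for 3 of 5, with sums of 350.5 to 642.7 against 143.5 to 146.8. Flt4 is in both the venous and the lymphatic list, so these counts are not independent. How much of the Ephb4 and Efnb2 RNA came from vessels was not tested.

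Of the family genes outside the 10, 6 were tested in female hearts. All 6 had a log2 change above 0 and 2 were called higher ventrally, beside 14.5% of all genes. Ephb6, an Eph receptor without kinase activity, measured 6.81, 14.6 and 15.0 normalized CPM in the female ventral and 0.762, 2.10 and 1.02 in the female dorsal libraries. The groups lay far apart, and the log2 change of 2.49 (standard error 0.381, limma adjusted p = 0.00216) exceeded that of Ephb2. In male hearts it ranged from 5.79 to 16.8 ventrally and from 1.77 to 14.2 dorsally, and the groups overlapped. Over both sexes its change was 1.49 (adjusted p = 0.0306), and this call was lost with edgeR (0.0756), after correction for GC content and length (0.0542), also together with the block, and without any 1 of 8 libraries, female ventral replicates 2 and 3, female dorsal replicates 1 to 3, male ventral replicates 6 and 7 and male dorsal replicate 4.

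Epha2, an EphA receptor of epithelia, measured 6.29, 12.0 and 7.30 normalized CPM in the female ventral and 3.81, 1.77 and 1.32 in the female dorsal libraries. Unlike the 3 EphA receptors above, it stood higher ventrally, with no overlap and a log2 change of 1.56 (standard error 0.375, limma adjusted p = 0.0143; 0.0622 without female ventral replicate 2). It was also higher ventrally in 6 of 6 pools, of which the 3 female ones were fixed by that lack of overlap. Epha2 was called over both sexes as well (log2 change 1.05, adjusted p = 0.0175). Epha1 ranged from 0.391 to 8.83 normalized CPM over the 13 libraries, Ephb1 from 1.50 to 13.2, Efna2 from 5.31 to 26.2, Efna4 from 1.96 to 9.51 and Efnb3 from 12.8 to 44.2. None of these was called in the main fit of a comparison where it was tested, and Epha1 was not tested in female hearts because of its low values. Over both sexes Epha1 had a log2 change of 1.06 (limma adjusted p = 0.0608) and was called under 3 of 23 alternatives. In females Efna4 had one of 0.57 (limma adjusted p = 0.328) and was called under 1 of 14. Epha5, Epha6, Epha8, Epha10 and Efna3 are not listed.

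Signalling partners were taken from a list of 33 genes for forward signalling, reverse signalling and turnover, all of them listed. In female hearts 9 were called higher and 3 lower ventrally, beside 27.8% of all genes called in either direction and 14.5% higher, with a median log2 change of 0.18. In male hearts none was called, and 8 of the 33 had an unadjusted p under 0.05, beside 2083 of all 14917 genes. With the pool as a block 1 was called in males, Rac1, beside 0.509% of all genes. Over both sexes 11 were higher and 2 lower, beside 18.9% of all genes in either direction and 9.8% higher, and these counts fell to 6 and 1 with the pool as a block and to 3 and 2 after correction for GC content and length. Without any 1 of the 6 female libraries, male ventral replicate 6 or male dorsal replicate 4, between 5 and 7 were higher over both sexes. Between the sexes 1 partner was called higher and 6 lower in males, beside 10.9% of all genes, and the regional change differed for 2, beside 2.73%, described last.

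Vav2, an exchange factor recruited by activated Ephs, measured 12.4, 18.2 and 9.06 normalized CPM in the female ventral and 4.09, 1.44 and 4.17 in the female dorsal libraries. In males it measured 12.97, 8.32, 13.7 and 11.5 ventrally and 7.63, 2.32 and 7.47 dorsally. The groups overlapped in neither sex, and the log2 change was 1.78 in females (limma adjusted p = 0.00865) and 1.36 over both sexes (0.00988). Anks1, an adaptor that binds Eph receptors and controls their turnover, was higher ventrally in both sexes without overlap and changed by 0.88 over both (adjusted p = 0.0120), or by 0.48 after correction for GC content and length (0.0718).

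Src, a kinase downstream of both receptors and ligands, had a female log2 change of 1.62 (limma adjusted p = 0.0110; 0.0516 without female ventral replicate 2). Ptpn13, a phosphatase that binds and dephosphorylates ephrin-Bs, had one of 1.54 (adjusted p = 0.00336). The adaptors Nck2, which binds activated Ephs, and Sdcbp (syntenin), which binds the tail of ephrin-Bs, were lower ventrally in females, by log2 changes of -1.31 (adjusted p = 0.0128) and -0.76 (0.00502). The sign of the change thus differed among the partners on the forward and on the reverse side alike.

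Rock2, a kinase that acts on actomyosin, measured 153.9, 152.9 and 189.3 normalized CPM in the female ventral and 46.3, 46.3 and 59.2 in the female dorsal libraries. In males it was at 66.7, 44.4, 63.9 and 55.4 ventrally and at 43.3, 56.6 and 42.9 dorsally. The female groups lay wide apart and the male groups overlapped. The log2 change was 1.69 in females (limma adjusted p = 0.000334) and 0.26 in males (0.530), and the difference of -1.43 between them was called (adjusted p = 0.00527).

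Rac1, a GTPase of lamellipodia, measured 125.6, 149 and 172.9 normalized CPM in the female ventral and 340.9, 379 and 418 in the female dorsal libraries. In males it was at 107.7, 115.3, 92.1 and 71.9 ventrally and at 38.4, 36.7 and 47.2 dorsally. The order of the regions was opposite in the 2 sexes, without overlap in either. The log2 change was -1.35 in females (limma adjusted p = 0.000667) and 1.21 in males (adjusted p = 0.195, or 1.35 and 0.00225 with the pool as a block). Of the 60-base windows of Rac1, 50.1% also occur in Daglb on the other strand, and the value is uncertain wherever counting could not split reads between the pair.

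Across the 13 libraries of settled region, the genes most like Efnb1 among 15771 were Bptf, Loxl2 and Bmp2k, with Pearson correlations of 0.960, 0.959 and 0.956 on the log2(normalized CPM + 1) scale. Those most like Efna5 were Ano6 (0.962), Sulf1 (0.952) and Lrpap1 (0.951), and those most like Ephb2 were Acot7 (0.922), Dtx4 (0.921) and Col6a6 (0.921). The 13 points share region, sex and pools of 1 dissection, so these values describe a shared pattern over libraries and carry no test.

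Base composition moved with the sign of the change to some degree. Transcript GC content was 55.4% for Ephb2, 57.0% for Ephb3, 58.4% for Ephb4 and 58.2% for Efnb1, and 41.9%, 45.6% and 41.7% for Epha3, Epha4 and Epha7. Efna5, called higher ventrally in females, had 44.8%. Efna1, at 54.17%, changed by 0.23 in females and -0.17 in males, and Efnb2, at 50.45%, by 0.25 and 0.16, none of them called. After correction for GC content and length, the female log2 change was 1.12 for Efnb1 (limma adjusted p = 0.00625) and 0.77 for Efna5 (0.00402), both still called, and 0.36 for Ephb4 (0.217).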

How the data were processed

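RNA was measured in the epicardium and subepicardium of E16.5 hearts, as poly(A) libraries read in 60-base single reads. According to their methods and the processing notes, the authors trimmed adapters with Cutadapt, quantified reads per gene with RSEM on GRCm38 (version 1.3.1 in the notes) and normalized with limma. The deposited signal is reads plus an offset over an effective library size, scaled to counts per M, and whole reads were recovered for 100% of values (tolerance 0.02 reads). Whether counting used strand is not given in the sources used here.

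Tests used limma 3.58.1 in R 4.3.3 (trend) on log2(value + 1), keeping genes that reached 1 in 3 or more of the libraries fitted, with Benjamini-Hochberg adjustment over all genes tested and a threshold of 0.05. Regions were compared in females, in males and in both sexes (sex as covariate), the regional changes between the sexes in 1 fit of 4 groups, and the sexes with region as covariate. p-values measure the spread between libraries of 2 hearts each, taken as independent in the main fits. In the male against female test, the ventral and dorsal libraries of 1 pool number therefore counted as 2. The steps were tested on simulated data with independent libraries and 1 fixed spread for all genes. Those data held no pairing and no outlying libraries as seen here, so that test says nothing on either. The labels do not say what a pool number marks. The deviations of same-numbered libraries from their group means were correlated, at 0.187, 0.169 and 0.270 for female pools 1 to 3. For male pools 4 to 6 the values were 0.427, 0.175 and 0.351. The same correlation was not taken for libraries of different numbers. In the male against female fit, limma estimated a correlation of 0.0124 between libraries of 1 number. These values do not settle the pairing, so the numbers were taken to pair the libraries only in an alternative, the block. Others were a pseudocount of 0.1, no filter, median of ratios, no trend, edgeR 4.0.16 on recovered reads, correction for GC content and length (a trend fitted in each library, splines with 5 degrees of freedom), each library left out, and the library of unsettled region as dorsal or ventral.

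Levels per kb, GC content, shared windows and gene positions used GENCODE M21 (GRCm38). Promoters are from RefSeq. The members, the partner, marker and family lists and the tests were chosen with earlier results of these data known. Named are the 10 members, the other family genes, partners called in the female or both-sexes comparison with groups that do not overlap in the sex or sexes compared (up to 4 a direction), and the 3 genes with the highest Pearson correlation to each called member. Ccl21a, which has 2 identifiers, was left out of its list. Marker lists for smooth muscle and for Schwann cells and neurons were also made: in females smooth muscle gave 1 called higher and 3 lower of 6, and 1 Schwann or neuronal marker was tested and not called.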

Additional observations from a re-analysis of the deposited data

Results flagged for a closer look

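Among the genes named, the regional change differed between the sexes in a test of that difference for Rac1, by 2.559 on the log2 scale (male minus female, limma adjusted p = 9.92e-05), and for Rock2, by -1.426 (limma adjusted p = 0.00527). The Rac1 value is uncertain because of its overlap with Daglb. No Eph receptor or ephrin had a male ventral library, the one group of 4, far enough from the others to stand out by Dixon's criterion at the 95% level.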

How the results depend on the processing

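Of 970 alternative values for 53 single-gene results, 905 kept their direction and their side of the threshold. None of the male regional results among them was called in the main fit, and no male alternative called more than 76 genes. That total therefore says little about the called results. Those lost their call in 19 values with a library left out and in 12 under the other alternatives. For the count of the 10 genes called over both sexes, 2 as reported, the value was 1 with edgeR, 1 after correction for GC content and length and 1 with the unsettled library counted as ventral, and it lay between 1 and 3 when libraries were left out in turn. The female count of 3 lay between 2 and 4, the count for the sexes between 0 and 1 (1 after that correction, Efnb1), and those for males and for the difference between the sexes stayed at 0.

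Directions turned for small changes. After that correction, the male changes of Ephb3 and Ephb4 were -0.114 and -0.0547 and that of Efna1 over both sexes was -0.0818. With the replicate number as a block, Ephb3 in males was -0.110 and Efna1 over both sexes -0.028, and with both, -0.29 and -0.12.

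With libraries left out in turn, the log2 change in females ran from -0.65 to 0.57 for Epha4 and from -0.88 to 0.0816 for Epha7. In males it ran from -0.11 to 0.26 for Ephb3, -0.71 to 0.13 for Epha4 and -0.36 to 0.10 for Efna1. Over both sexes it ran from -0.46 to 0.0418 for Epha4 and -0.0817 to 0.16 for Efna1, and between the sexes from -0.0123 to 0.33 for Ephb2.

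Besides the values given in the report for Ephb4, Rac1 and the partner counts, the block alone ended the calls of Src (adjusted p = 0.0616) and Nck2 (0.0547) over both sexes and changed no other call of a family or partner gene named. Among the 10 genes, with the block and the correction together Ephb2 was lost and Efna5 over both sexes was called (adjusted p = 0.0494). The cause of these changes was not tested. A gene at 3 reads or fewer cannot be told from 0 at this depth.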

Other observations

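In the male library whose region is not settled, Epha3 stood at 27.1 normalized CPM, the highest of the 14 libraries, and Efnb2 at 8.75, the lowest. Its other values were 2.45 for Ephb2, 4.92 for Ephb3, 48.5 for Ephb4, 25.4 for Efnb1, 71.6 for Efna1, 154 for Efna5, 13.7 for Epha4 and 42.8 for Epha7, within the range of the other male libraries for Ephb3, Efnb1, Efna1, Efna5, Epha4 and Epha7, below it for Ephb2 and above it for Ephb4.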
